A study of Mus musculus with 20 samples.

Results

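Kinesins are motor proteins that walk on microtubules with energy from ATP, and the mouse genome holds a large family of them. The members described here are the 42 genes, of 23366 gene symbols counted, whose symbol begins with Kif followed by a digit or by the letter c, and all 42 passed the filter on low counts that left 16872 genes for testing. They were sorted, with roles as a guide, into 13 mitotic kinesins, 16 transport kinesins, 7 germ cell and flagellum kinesins and 6 others. The groups do not follow role strictly, and the related Kif2a, Kif2b and Kif2c stand in different groups. The sorting was made with earlier results of these data known. In a testis the mitotic kinesins build and pull the spindle of dividing spermatogonia and spermatocytes, and the transport kinesins carry vesicles, organelles and proteins along microtubules. Other kinesins build the flagellum and reshape the spermatid head, so that the family serves both cell division and the making of a sperm.

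RNA was sequenced from wild-type C57BL/6J mice at 5 stages, each with 2 biological replicates, n1 and n2, and no group carried another allele or agent. Whole testes were taken 1, 3 and 7 days after birth, when the tubules hold Sertoli cells with gonocytes or spermatogonia. Mixed leptotene and zygotene spermatocytes, in early meiotic prophase, and pachytene spermatocytes, in mid prophase, came from adults of 70 to 80 days by sedimentation at unit gravity, with purity judged by microscopy. How many animals went into a library is not given in the sources used here, and a change of stage from day 7 onward is also a change from whole tissue to a fraction and from young to adult mice.

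Reads assigned to genes ranged from 3597360 (leptotene/zygotene n1) to 22181395 (day 3 n1), and levels are given below as CPM, counts of a gene relative to all counts of its library, with library sizes scaled by the trimmed mean of M-values (TMM). A count of 3, taken as the floor, equals 0.0999 to 1.46 CPM depending on the library. The leptotene/zygotene libraries stood against their label in several marker levels. The summed level of 9 spermatid markers was 65880 and 68700 CPM in them, 8870 and 5404 CPM in the pachytene libraries and 2.37 to 37.4 CPM in whole testis. Prm2, a protamine of condensing spermatids, had 21760 ± 26.3 CPM (SD, n = 2), and Dmc1, the meiotic recombinase of early prophase, 7.32 ± 3.41 CPM against 10 ± 0.101 CPM at day 7. The sum of 8 meiotic prophase markers was 711.6 and 1199 CPM in the leptotene/zygotene libraries, 896 and 1736 CPM at pachytene and 137 and 146 CPM at day 7. The sum of 5 pachytene markers was 14180 and 15000 CPM in the leptotene/zygotene libraries, above the 11500 and 12130 CPM of the pachytene libraries. The leptotene/zygotene libraries are therefore called LZ-labelled below, and counts of day 7 against them are given beside the same counts for the pachytene libraries. The Sertoli list (9 genes) fell from 2229 and 2357 CPM at day 7 to 71.0 and 32.5 CPM in the LZ-labelled fraction and 130.0 and 81.6 CPM at pachytene, with all 9 genes detected in every stage. The sums also fell for Leydig (366 and 549, then 5.61 to 36.5 CPM in the fractions), endothelial (201 and 204, then 25.7 to 73.5) and macrophage markers (55.1 and 71.3, then 3.30 to 14.6, with 1 of 5 at 0 counts at pachytene), and for 4 of the 5 peritubular markers (805 and 828 CPM, then 84.2 and 35.1 in the LZ-labelled fraction and 48.2 and 24.9 at pachytene). The fifth, Actg2, a smooth muscle actin named after its values were seen, rose from 16.6 ± 1.46 to 498 ± 119 CPM in the LZ-labelled fraction. Of 5 endothelial markers, 1 was called higher in the LZ-labelled fraction than at day 7 and 3 lower (36.5% and 42.0% of all genes). Of 10 spermatogonial markers, 1 was higher there and 7 lower. At pachytene 1 of these 10 was higher than at day 7 and 9 lower (35.1% and 40.1% of all genes). The spermatogonial sum still rose, from 508 and 428 CPM at day 7 to 1397 and 2082 (LZ-labelled) and 1616 and 1742 (pachytene). The part of these shifts in the kinesin results was not tested, and in bulk RNA fewer cells of a type and less RNA per cell cannot be told apart.

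Promoter sequence from RefSeq (GRCm38.p6, 250 bases before to 50 bases after the annotated start) was matched by symbol to 33 of the 42 kinesins, 4 of them with 2 promoters. Mitotic promoters are shown first because the motif TTTGAA, known as the cell cycle genes homology region, was present, on either strand, in 11 of the 12 for which the table held one. It was present in 1 of 12 transport promoters, 1 of 7 germ cell promoters, 1 of 6 others and 17.9% of all 32851 promoters in the table. The exception among the mitotic kinesins was Kif18a. Capitals mark matches on either strand to TTTGAA, to CCAAT and to TGACG, the core of a cAMP response element, and each line gives 80 bases on the strand of the gene, from 5′ to 3′, ending at the base before the start for all but Kif17.
Kif11, chr19:37376302-37376381 (+ strand): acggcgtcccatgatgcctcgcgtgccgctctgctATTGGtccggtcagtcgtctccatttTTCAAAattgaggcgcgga
Kif22, chr7:127042421-127042500 (- strand): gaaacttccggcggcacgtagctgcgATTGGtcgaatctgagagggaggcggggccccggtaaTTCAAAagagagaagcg
Kif15, chr9:122951001-122951080 (+ strand): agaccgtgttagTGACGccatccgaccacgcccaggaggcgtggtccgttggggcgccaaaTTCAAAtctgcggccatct
In Kif11 and Kif15 the TTTGAA match shown begins 19 bases before the start, and in Kif22 it begins 17 bases before it. The CCAAT match lies 45 bases before the start in Kif11 and 54 in Kif22. CCAAT was present in 8 of 12 mitotic, 4 of 12 transport, 4 of 7 germ cell and 1 of 6 other promoters, against 37.4% of all promoters. The 12 transport promoters belong to 10 genes, of which 3 held CCAAT. The 7 germ cell promoters belong to 6 genes and the 6 others to 5.

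Kif17 and Kif2b are shown as the germ cell promoters that held TGACG, which 2 of 7 germ cell, 7 of 12 mitotic, 7 of 12 transport and 1 of 6 other promoters held, against 20.8% of all. By gene, 6 of 10 transport kinesins with a promoter held it. The Kif17 line runs from 120 to 41 bases before the start and holds the full palindrome TGACGTCA, which contains TGACG on both strands and was searched after the shorter motif had been seen.
Kif17, chr4:138262131-138262210 (+ strand): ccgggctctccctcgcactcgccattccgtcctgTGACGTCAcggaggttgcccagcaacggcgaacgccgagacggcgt
Kif2b, chr11:91577556-91577635 (- strand): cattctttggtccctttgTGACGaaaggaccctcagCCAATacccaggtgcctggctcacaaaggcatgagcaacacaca
The palindrome lies 86 bases before the start of Kif17, was also found in promoters of Kif18a and Kif5c, and was present in 1.79% of all promoters. In Kif2b the TGACG match lies 62 bases before the start and a CCAAT match 44 bases before it. A match describes letters in these windows, and binding was not measured.

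Kifc1 and Kifc5b, close copies on chromosome 17, are shown because their reads may be shared, which makes the split of counts between them uncertain.
Kifc1, chr17:33890634-33890713 (- strand): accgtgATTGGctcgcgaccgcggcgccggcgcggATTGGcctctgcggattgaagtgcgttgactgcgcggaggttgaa
Kifc5b, chr17:26917011-26917090 (+ strand): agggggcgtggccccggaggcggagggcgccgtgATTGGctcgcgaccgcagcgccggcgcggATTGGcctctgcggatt
Shifted by 28 bases and without gaps, 239 of 272 compared bases of the promoters were identical (87.9%). Both lines carry a pair of CCAAT matches on the opposite strand, at 74 and 45 bases before the start in Kifc1 and 46 and 17 bases before it in Kifc5b.

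The summed kinesin level was 1769 ± 64.1 CPM (SD, n = 2) at day 1, 1765 ± 178 at day 3, 1968 ± 70.0 at day 7, 9481 ± 1091 in the LZ-labelled fraction and 5413 ± 63.2 at pachytene. The rise was mostly in germ cell and flagellum kinesins, whose sum was 33.6 ± 1.66, 25.7 ± 8.68 and 48.2 ± 2.63 CPM in the testis stages, 5626 ± 321 CPM in the LZ-labelled fraction and 2306 ± 96.7 CPM at pachytene. Their share of kinesin CPM was 1.90%, 1.44% and 2.45% in the testis stages, 59.5% in the LZ-labelled fraction and 42.6% at pachytene. These values depend on the placing of Kif2b, which alone had 1820 ± 99.7 CPM in the LZ-labelled fraction and 629 ± 119 CPM at pachytene. Transport kinesins held 58.7%, 49.7% and 55.9% of kinesin CPM in the testis stages, then 21.2% and 31.7%. Mitotic kinesins held 29.0%, 39.5% and 33.4%, then 12.7% and 15.2%, although their summed CPM was higher in the fractions than at day 7 (1213 ± 310 and 822 ± 126 against 659 ± 77.0). Kif2b, Kif3b, Kif9, Kif17 and Kif27 together made up 70.2% of kinesin CPM in the LZ-labelled fraction and 58.4% at pachytene, against 3.71% to 4.51% in the testis stages. By highest stage, 4 germ cell kinesins peaked in the LZ-labelled fraction and 3 at pachytene, and no transport kinesin peaked at pachytene. These shares are sums of read counts that are not corrected for transcript length, so they weight long transcripts more.

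**Figure D1:**
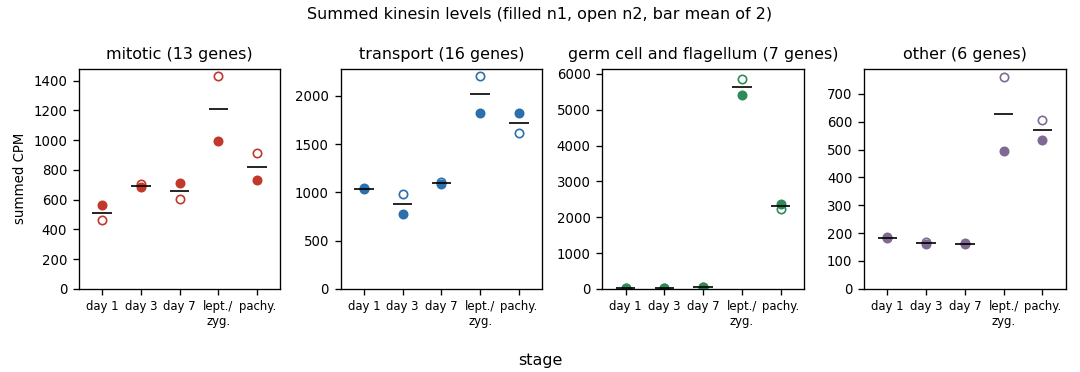
Summed CPM of the kinesins of each group (y axis, linear from 0, a scale per panel) in the 5 stages (x axis); filled points are n1, open points n2 and bars the mean of the 2 libraries. Germ cell and flagellum kinesins stand at 19.6 to 50.04 CPM in the testis libraries and at 2237 to 5853 CPM in the fractions.

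**Figure D2:**
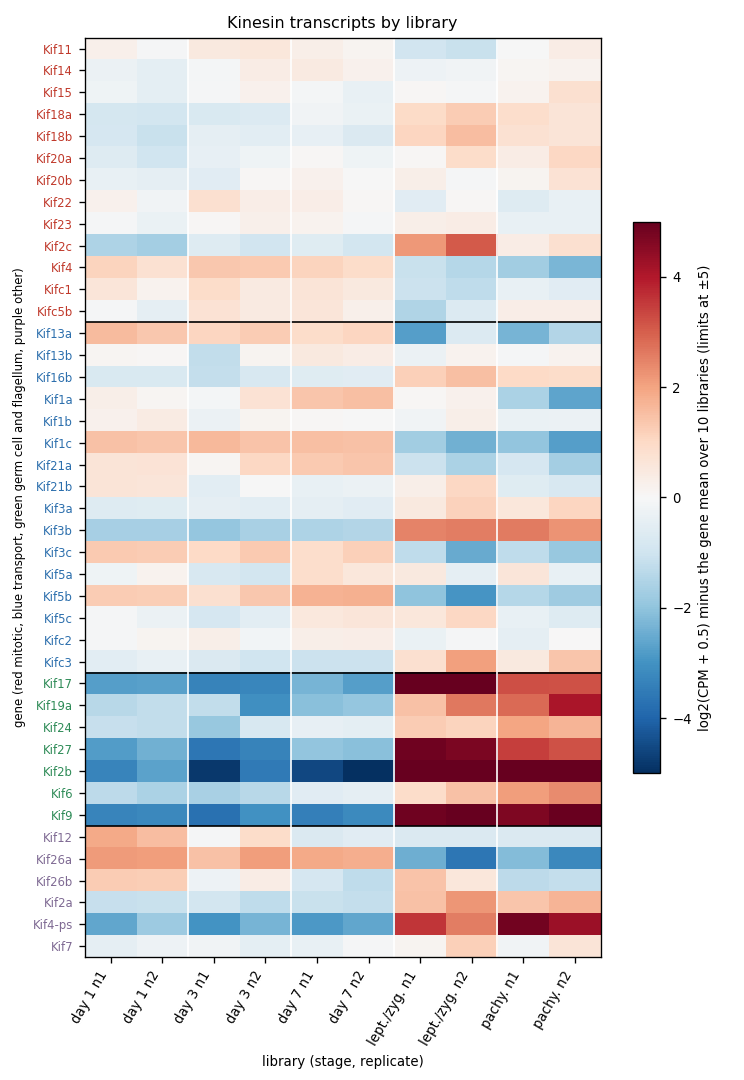
Each row is a kinesin and each column a library; color is log2(CPM + 0.5) minus the mean of that gene over the 10 libraries, limited at 5 either way. The germ cell rows turn from blue in whole testis to red in both fractions, whereas mitotic and transport rows hold genes of either color.

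Across stages, tests were made with edgeR's quasi-likelihood method in 1 fit of all 10 libraries, log2 changes are given ± SE, and a gene was called where its Benjamini-Hochberg adjusted p over all genes tested was under 0.05. From day 1 to day 3, 0 of 42 kinesins were called by edgeR and 0 by DESeq2, 8 had an unadjusted edgeR p under 0.05 (6.5% of all genes did), and 0% of all genes were called. From day 3 to day 7, 1 kinesin was higher and 0 were lower (background 1.49% of all genes, 0.931% higher and 0.563% lower). Over the whole span from day 1 to day 7, 2 were lower and 0 higher (background 3.36%, 1.08% higher and 2.28% lower). Between day 7 testis and the LZ-labelled fraction 30 kinesins were called, 71.4% of the 42, with 19 higher and 11 lower (background 78.5%, 36.5% higher and 42.0% lower). Between day 7 and pachytene, a comparison added after the spermatid markers had been seen, 29 were called, 18 higher and 11 lower (background 75.2%, 35.1% higher and 40.1% lower), and with upper-quartile scaling 16 were higher and 15 lower. From the LZ-labelled fraction to pachytene 10 were called, 23.8%, with 3 higher and 7 lower (background 22.2%, 9.03% higher and 13.2% lower). The share of kinesins called lay near that of all genes in the steps into the fractions, and the groups within the family differed in direction. The median log2 change of all genes was -0.31 from day 7 to the LZ-labelled fraction and -0.27 to pachytene under TMM. For the LZ-labelled fraction it was 0.01 with median-ratio scaling and -0.70 with upper-quartile scaling, and no called kinesin changed direction under either.

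Few kinesins passed a test within whole testis from day 1 to day 7 in the fit of all 10 libraries. More passed from day 3 to day 7 and from day 1 to day 7 in fits of fewer stages. All 13 mitotic kinesins had a positive log2 change from day 1 to day 3, with a median of 0.42 and a range of 0.16 to 0.89, where the median of all genes was 0.00. None of these was called by edgeR, and 2 had an unadjusted p under 0.05, Kif2c and Kifc5b. Kif2c, a depolymerase that corrects microtubule attachment at centromeres, had 27.7 and 25.02 CPM at day 1, 52.1 and 41.8 at day 3 and 54.0 and 43.1 at day 7. Its day 1 libraries lay below those of days 3 and 7, with a log2 change of 0.83 ± 0.32 (edgeR adjusted p = 0.693). Of 24 spindle partners of these motors (Aurora kinases, cyclins, checkpoint and kinetochore proteins), 22 had a positive change from day 1 to day 3, none was called by edgeR, and 9 had an unadjusted p under 0.05 (6.5% of all genes did). Against day 1, the day 7 mitotic median was again 0.42, with 13 of 13 positive, 0 called and 3 at an unadjusted p under 0.05 (18.4% of all genes were). Both comparisons share the day 1 libraries. Of 10 spermatogonial markers 5 rose and 0 fell from day 3 to day 7 (median 2.55), as did 3 of 8 meiotic prophase markers (median 2.30). In this step 0.931% of all genes rose and 0.563% fell. The 9 Sertoli markers had no called change, and the part of these markers in the testis results was not tested.

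Kif27, a relative of Kif7 linked to motile cilia, was the kinesin that rose from day 3 to day 7. It had 7.15 and 9.40 CPM at day 1, 3.86 and 4.72 at day 3 and 12.8 and 11.9 at day 7, so the day 7 libraries were the highest of the 6 and the day 3 libraries the lowest. The change from day 3 was 1.53 ± 0.27 (edgeR adjusted p = 0.0325). It lost its call without any 1 of the 6 testis libraries, with log2 changes of 1.29 to 1.48 and adjusted p of 0.0575 to 0.365. Kif5a and Kif5c, heavy chains of conventional kinesin known best from neurons, were higher in every day 7 library than in either day 3 library. Kif5a went from 5.23 and 4.72 to 17.7 and 14.4 CPM, with a log2 change of 1.69 ± 0.42 (edgeR adjusted p = 0.0867). Kif5c went from 11.0 and 13.8 to 29.6 and 30.8 CPM, with a log2 change of 1.29 ± 0.28 (edgeR adjusted p = 0.0608). Neither passed the test in this fit, whereas both passed in some alternatives. These were DESeq2, a fit of only these 2 stages and a fit of only the testis stages, among others.

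Kif26b and Kif12 fell from day 1 to day 7. Kif26b, an atypical kinesin with a role in kidney development, had 9.86 and 9.58 CPM at day 1, 3.06 and 5.05 at day 3 and 1.93 and 1.29 at day 7. The 3 stages did not overlap, and the change from day 1 to day 7 was -2.58 ± 0.44 (edgeR adjusted p = 0.0209). Kif12, another kinesin known from kidney, had 21 and 22 counts in day 1 testis, 9 and 13 in day 3 testis and 0 and 1 in day 7 testis, and 0 counts in all 4 libraries of the fractions. With 1 count at day 7 the scaled ratio to day 1 was 0.0133 (exact 95% interval 0.00033 to 0.0783, counting error only), and edgeR's adjusted p was 0.0339. Both calls were lost without either day 1 or either day 7 library, with adjusted p of 0.135 to 0.225 for Kif26b and 0.165 to 0.284 for Kif12. Kif1a, an axonal vesicle motor, went from 31.1 and 26.8 CPM at day 1 to 66.3 and 71.9 at day 7 with no overlap, and its log2 change of 1.26 ± 0.37 (edgeR adjusted p = 0.0967) did not pass. Kif1a passed with DESeq2, in a fit of only these 2 stages and in a fit of only the testis stages.

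All 7 germ cell and flagellum kinesins rose from day 7 testis to the LZ-labelled fraction, with a median log2 change of 6.87 where the median of all genes was -0.31 and 36.5% of all genes rose. All 7 were also higher at pachytene than at day 7, with a median of 5.85 beside -0.27 and 35.1% of all genes higher. Because the groups were drawn up with earlier results of these data known, these counts describe the group and are no test of it. Kif2b was placed in this group, while Kif2c was placed with the mitotic kinesins and Kif2a with the others. Kif2b, a depolymerase that removes tubulin from microtubule ends, showed the widest range of the family. Its counts were 10 and 25 in day 1 testis, 3 and 12 in day 3 testis, 4 and 0 in day 7 testis, 3596 and 18863 in the LZ-labelled fraction and 3505 and 3961 at pachytene. In CPM these were 1.23 and 2.16 CPM in day 1 testis, 0.0999 and 0.977 in day 3 testis and 0.221 and 0 in day 7 testis. Kif2b stood at 1749 and 1890 CPM in the LZ-labelled fraction and 713 and 545 CPM at pachytene. The fractions stood far above every testis library, with a log2 change from day 7 of 13.82 ± 0.99 (edgeR adjusted p = 1.63e-06) in the LZ-labelled fraction and 12.29 ± 0.96 (edgeR adjusted p = 3.17e-06) at pachytene. The size of both rests on 4 counts in day 7 n1. Without day 7 n2 they were 12.81 and 11.42, and without day 7 n1 no Kif2b read was left at day 7, so the fitted 17.16 and 15.77 are no bounds. Beside these few testis reads, spermatid markers summed to 35.9 and 37.4 CPM at day 1, 3.66 and 27.9 at day 3 and 2.37 and 3.32 at day 7, and their part in the testis reads was not tested.

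Kif9 and Kif6 are the pair of kinesin-9 motors, which sit in the axoneme of motile cilia and flagella. Kif9 had 1.73 and 1.90 CPM in day 1 testis, 1.17 and 2.20 in day 3 testis and 1.54 and 1.90 in day 7 testis. In the fractions it had 638 and 969.6 CPM (LZ-labelled) and 562 and 676 CPM (pachytene). Whole testis held little of it at any age, and its log2 change from day 7 was 8.86 ± 0.45 (edgeR adjusted p = 3.54e-07) in the LZ-labelled fraction and 8.48 ± 0.44 (edgeR adjusted p = 5.96e-07) at pachytene. Kif6 had 1.97 and 1.55 CPM in day 1 testis, 1.499 and 1.87 in day 3 testis and 3.70 and 3.99 in day 7 testis. At pachytene it had 25.8 and 31.0 CPM, after 11.2 and 16.6 CPM in the LZ-labelled libraries. Day 7, the LZ-labelled fraction and pachytene did not overlap, in rising order, and its log2 change from day 7 was 1.89 ± 0.33 (edgeR adjusted p = 0.000456) and 2.88 ± 0.33 (edgeR adjusted p = 3.28e-05) in the fractions.

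Kif17 is a homodimeric kinesin-2, and its testis form is known for carrying the CREM coactivator ACT (Fhl5) in spermatids. It had 4.81 and 4.83 CPM in day 1 testis, 3.00 and 3.17 in day 3 testis and 6.62 and 4.73 in day 7 testis. Its values were 1383 and 1509 CPM in the LZ-labelled and 333 and 323 CPM in the pachytene libraries. The LZ-labelled libraries were the highest and the pachytene libraries stood between them and whole testis. Its log2 change from day 7 was 7.99 ± 0.33 (edgeR adjusted p = 2.99e-07) in the LZ-labelled fraction and 5.85 ± 0.30 (edgeR adjusted p = 5.6e-07) at pachytene. Into the LZ-labelled fraction Fhl5, on the list of adaptors, also rose by 8.44 ± 0.65 (edgeR adjusted p = 2.34e-06). Crem, on the same list, rose by 5.48 ± 0.35 (edgeR adjusted p = 8.47e-07). Of the 21 genes on that list 11 rose and 8 fell in this step (36.5% and 42.0% of all genes), and a link to Kif17 was not tested. Kif27 had 1526 and 1370 CPM in the LZ-labelled fraction and 580.5 and 483 at pachytene. From day 7 its log2 change was 6.87 ± 0.32 (edgeR adjusted p = 2.99e-07) and 5.43 ± 0.30 (edgeR adjusted p = 7.28e-07).

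Kif19a and Kif24 act at the ends of cilia and centrioles, the first by trimming microtubules at the ciliary tip and the second at the mother centriole. Kif19a had 1.11 and 1.29 CPM in day 1 testis, 1.30 and 0 in day 3 testis and 0.496 and 0.614 in day 7 testis. Levels of Kif19a in the fractions were 11.2 and 25.6 CPM (LZ-labelled) and 29.3 and 71.6 CPM (pachytene). Its levels in the fractions differed widely between replicates, n2 being the higher in each, yet no testis library came near them. Its log2 change from day 7 was 5.08 ± 0.93 (edgeR adjusted p = 0.000643) in the LZ-labelled fraction, 4.29 without LZ-labelled n2, and 6.49 ± 0.96 (edgeR adjusted p = 0.000178) at pachytene, 5.69 without pachytene n2. Kif24 had 14.4 and 13.6 CPM in day 1 testis, 8.63 and 18.9 in day 3 testis and 24.6 and 23.2 in day 7 testis. The LZ-labelled libraries held 80.8 and 71.8 CPM and the pachytene libraries 129.8 and 107 CPM. Its log2 change from day 7 was the lowest of the 7, 1.67 ± 0.35 (edgeR adjusted p = 0.0014) in the LZ-labelled fraction and 2.31 ± 0.35 (edgeR adjusted p = 0.000209) at pachytene, and the stages from day 7 onward did not overlap.

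**Figure D3:**
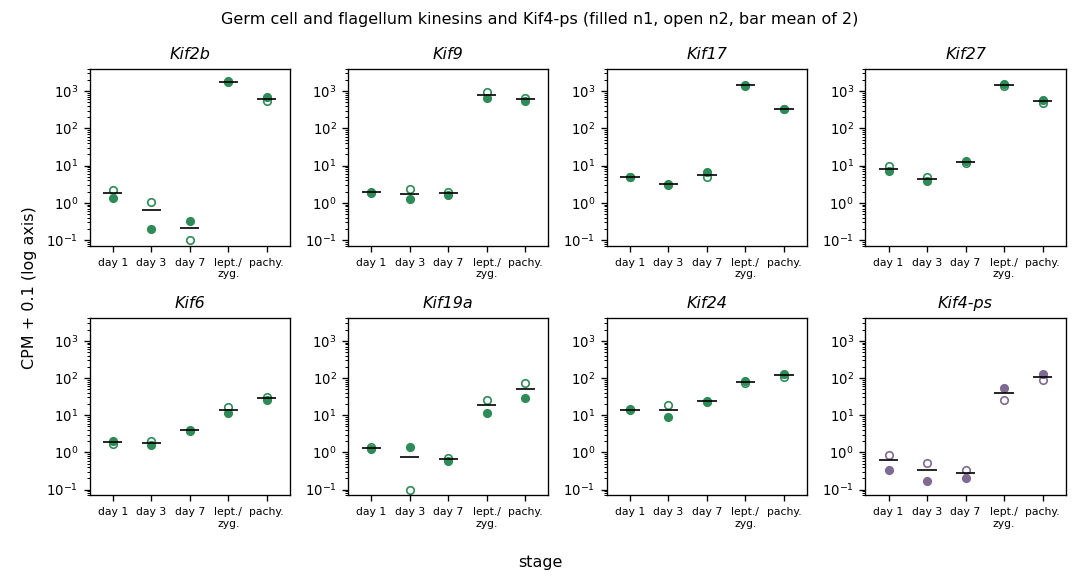
CPM plus 0.1 on a log axis (y) by stage (x) for the 7 germ cell and flagellum kinesins and Kif4-ps; filled points are n1, open points n2 and bars the mean of 2. In all 8 genes both fractions lie above every testis library, and Kif2b, Kif9, Kif17 and Kif27 exceed 300 CPM in both.

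The germ cell kinesins parted in the step from the LZ-labelled fraction to pachytene. Kif17 fell by 2.14 ± 0.25 on the log2 scale (edgeR adjusted p = 0.000963) and Kif27 fell by 1.45 ± 0.25 (edgeR adjusted p = 0.00472). Kif6 rose by 0.99 ± 0.32 (edgeR adjusted p = 0.0498), a call that was lost in 11 of 17 alternatives, among them each spermatocyte library left out, with adjusted p of 0.0515 to 0.136. The other 4 did not pass: Kif2b had -1.53 ± 0.56 (edgeR adjusted p = 0.0762), Kif9 -0.38 ± 0.31 (edgeR adjusted p = 0.437), Kif19a 1.40 ± 0.74 (edgeR adjusted p = 0.213) and Kif24 0.64 ± 0.34 (edgeR adjusted p = 0.213). Of the 9 spermatid markers, 5 fell and 0 rose in this step (13.2% and 9.03% of all genes), with a median of -3.37. From day 7 to the LZ-labelled fraction 9 of these 9 markers rose (36.5% of all genes). Their part in the change of Kif17 and Kif27 was not tested.

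Mitotic kinesins went both ways between day 7 testis and the LZ-labelled fraction, with 3 higher, 4 lower and 6 not called, and a median log2 change of 0.04 (36.5% of all genes were higher and 42.0% lower). At pachytene 5 were higher than at day 7 and 3 lower, with a median of -0.03 (35.1% and 40.1% of all genes). Kif2c rose by the most. It had 27.7 and 25.02 CPM in day 1 testis, 52.1 and 41.8 in day 3 testis and 54.0 and 43.1 in day 7 testis. Kif2c stood at 374 and 684 CPM in the LZ-labelled fraction and 106 and 145 CPM at pachytene. Its rise into the LZ-labelled fraction of 3.45 ± 0.35 (edgeR adjusted p = 1.26e-05) was followed by a fall of 2.08 ± 0.33 on the log2 scale to pachytene (edgeR adjusted p = 0.003), where it remained 1.37 ± 0.32 (edgeR adjusted p = 0.00342) above day 7. Kif18a and Kif18b, the kinesin-8 motors that limit microtubule length while chromosomes align, were also higher in both fractions. Kif18a had 16.3 and 16.1 CPM in day 1 testis, 17.5 and 18.6 in day 3 testis and 27.1 and 24.1 in day 7 testis. In the fractions it had 58.9 and 74.5 CPM (LZ-labelled) and 55.8 and 47.8 CPM (pachytene). From day 7 its log2 change was 1.39 ± 0.24 (edgeR adjusted p = 0.000423) and 1.01 ± 0.24 (edgeR adjusted p = 0.00311) in the fractions. Kif18b had 33.8 and 28.1 CPM in day 1 testis, 44.7 and 42.2 in day 3 testis and 45.9 and 36.8 in day 7 testis. At pachytene it had 104 and 96.1 CPM, after 128 and 179 CPM in the LZ-labelled libraries. Its change was 1.90 ± 0.26 (edgeR adjusted p = 9.57e-05) and 1.27 ± 0.26 (edgeR adjusted p = 0.00127), and for both motors the fractions lay wholly above whole testis.

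Kif11 pushes spindle poles apart, and Kif15 is known to share that task. Kif11 had 117 and 94.3 CPM in day 1 testis, 139 and 144 in day 3 testis and 122 and 109 in day 7 testis. Its values were 50.1 and 45.4 CPM in the LZ-labelled and 97.0 and 128 CPM in the pachytene libraries. The LZ-labelled libraries were the lowest of the 10, a fall of 1.27 ± 0.24 on the log2 scale from day 7 (edgeR adjusted p = 0.000849), and the rise to pachytene of 1.24 ± 0.24 (edgeR adjusted p = 0.00763) left it at a log2 difference of -0.03 ± 0.24 from day 7 (edgeR adjusted p = 0.9). Kif15 had 38.8 and 31.6 CPM in day 1 testis, 42.2 and 52.2 in day 3 testis and 42.1 and 34.1 in day 7 testis. Levels of Kif15 in the fractions were 46.7 and 42.9 CPM (LZ-labelled) and 50.9 and 78.2 CPM (pachytene). It did not pass into the LZ-labelled fraction (0.23 ± 0.28, edgeR adjusted p = 0.476) and was called at pachytene against day 7 (0.76 ± 0.28, edgeR adjusted p = 0.0316). That call was lost in 5 of 16 alternatives. Among these were upper-quartile scaling (0.50, edgeR adjusted p = 0.145) and a fit of only these 2 stages (0.83, edgeR adjusted p = 0.0555). The others left out day 7 n1, day 7 n2 or pachytene n2, with log2 changes of 0.96, 0.65 and 0.40. Reads of Kif11 over reads of Kif15, a ratio within each library that is not corrected for length, were 3.02 and 2.99 in day 1 testis, 3.30 and 2.75 in day 3 testis, 2.89 and 3.18 in day 7 testis, 1.07 and 1.06 in the LZ-labelled fraction and 1.91 and 1.63 at pachytene. The ratio was lower in every fraction library than in any testis library.

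Kif4, Kifc1 and Kifc5b completed the mitotic kinesins that fell from day 7 to the LZ-labelled fraction. Kif4, a chromosome-bound motor encoded on the X, had 48.1 and 37.0 CPM in day 1 testis, 55.9 and 55.4 in day 3 testis and 48.2 and 41.8 in day 7 testis. The LZ-labelled libraries held 9.73 and 7.82 CPM and the pachytene libraries 6.10 and 4.13 CPM. Every fraction library lay below every testis library, with a log2 change from day 7 of -2.39 ± 0.30 (edgeR adjusted p = 4.71e-05) and -3.15 ± 0.30 (edgeR adjusted p = 1.04e-05). Kifc1, a minus-end motor that focuses spindle poles and is also known from the spermatid acrosome and nucleus, had 24.9 and 18.1 CPM in day 1 testis, 30.7 and 21.8 in day 3 testis and 25.2 and 22.9 in day 7 testis. Kifc1 stood at 7.30 and 6.41 CPM in the LZ-labelled fraction and 12.2 and 10.6 CPM at pachytene. Its change was -1.83 ± 0.32 (edgeR adjusted p = 0.000469) and, at pachytene, -1.08 ± 0.30 (edgeR adjusted p = 0.00799), the latter with adjusted p = 0.0644 without day 7 n1. Kifc5b had 7.40 and 5.52 CPM in day 1 testis, 13.1 and 10.7 in day 3 testis and 11.9 and 9.28 in day 7 testis. In the fractions it had 2.43 and 4.61 CPM (LZ-labelled) and 9.97 and 9.91 CPM (pachytene). It fell into the LZ-labelled fraction (-1.45 ± 0.37, edgeR adjusted p = 0.00507, and -2.14 without LZ-labelled n2), rose to pachytene (1.36 ± 0.38, edgeR adjusted p = 0.0318) and stood near its day 7 level there (-0.09 ± 0.34, edgeR adjusted p = 0.814). The rise had adjusted p of 0.0561, 0.0716 and 0.075 without LZ-labelled n1, pachytene n1 and pachytene n2, and a log2 change of 2.04 without LZ-labelled n2. Reads of Kifc5b over Kifc1 were 0.301 ± 0.00547 (SD, n = 2) at day 1 and 0.876 ± 0.0837 at pachytene, a ratio open to reads shared by the pair.

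The other mitotic kinesins were not called into the LZ-labelled fraction. Kif23, the motor of centralspindlin, had 84.3 and 69.8 CPM in day 1 testis, 92.1 and 104 in day 3 testis and 98.7 and 82.8 in day 7 testis. At pachytene it had 67.8 and 67.9 CPM, after 108 and 112 CPM in the LZ-labelled libraries. Between the fractions its log2 change was -0.70 ± 0.23 (edgeR adjusted p = 0.0518), just outside the threshold. Kif20a, which brings Aurora B to the central spindle, had 51.3 and 40.3 CPM in day 1 testis, 61.0 and 69.3 in day 3 testis and 82.6 and 69.2 in day 7 testis. Its values were 84.2 and 152 CPM in the LZ-labelled and 103 and 164 CPM in the pachytene libraries. Its replicates in the fractions were far apart, and the change from day 7 was 0.65 ± 0.34 (edgeR adjusted p = 0.1) and 0.81 ± 0.34 (edgeR adjusted p = 0.0489). The second was called in 7 of 16 alternatives and had adjusted p = 0.330 without pachytene n2. Kif20b, a cytokinesis motor, had 46.5 and 44.6 CPM in day 1 testis, 40.8 and 63.7 in day 3 testis and 69.3 and 59.5 in day 7 testis. Levels of Kif20b in the fractions were 74.9 and 58.1 CPM (LZ-labelled) and 66.3 and 99.8 CPM (pachytene). Day 7 and the fractions overlapped, with 0.04 ± 0.31 (edgeR adjusted p = 0.911) and 0.37 ± 0.30 (edgeR adjusted p = 0.287). Kif22, a chromokinesin that moves chromosome arms, had 45.1 and 34.8 CPM in day 1 testis, 68.6 and 49.7 in day 3 testis and 49.8 and 41.4 in day 7 testis. The LZ-labelled libraries held 26.3 and 40.5 CPM and the pachytene libraries 25.03 and 30.01 CPM. It was not called into the LZ-labelled fraction (-0.43 ± 0.30, edgeR adjusted p = 0.214), and its call at pachytene (-0.73 ± 0.30, edgeR adjusted p = 0.0493) was lost in 11 of 16 alternatives, with adjusted p up to 0.2495 (without day 7 n1). Kif14, which works in cytokinesis, had 21.3 and 18.6 CPM in day 1 testis, 24.6 and 34.0 in day 3 testis and 36.7 and 30.7 in day 7 testis. Kif14 stood at 22.4 and 23.8 CPM in the LZ-labelled fraction and 28.7 and 30.3 CPM at pachytene. Against day 7 neither -0.54 ± 0.26 (edgeR adjusted p = 0.0799) nor -0.19 ± 0.26 (edgeR adjusted p = 0.506) passed.

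**Figure D4:**
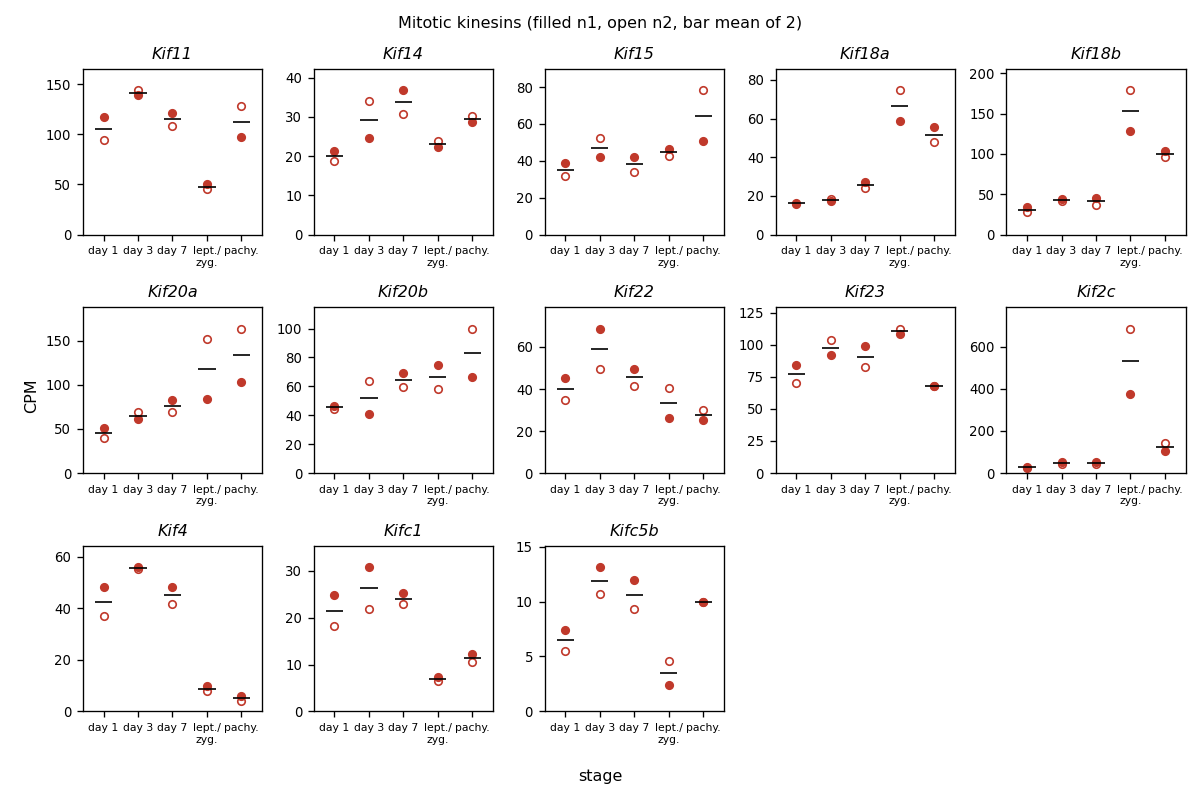
CPM (y axis, linear from 0, a scale per panel) by stage (x axis) for the 13 mitotic kinesins; filled points are n1, open points n2 and bars the mean of 2. Kif2c, Kif18a and Kif18b stand above whole testis in both fractions, Kif4 and Kifc1 below it, and Kif11 dips in the LZ-labelled fraction alone (45.4 and 50.1 CPM).

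Transport kinesins also held both directions, with 5 higher and 6 lower of 16 between day 7 testis and the LZ-labelled fraction (median -0.47) and 4 higher and 7 lower at pachytene against day 7 (median -0.55). The share called, 68.8% in each, was below that of all genes (78.5% and 75.2%), which also went both ways. The heterodimeric kinesin-2 genes went in both directions, with Kif3a and Kif3b higher and Kif3c lower in both fractions. Kif3a forms a heterodimer with Kif3b or with Kif3c, and with Kif3b and the adaptor Kifap3 it drives anterograde transport in cilia and flagella. Kif3b had 61.1 and 60.7 CPM in day 1 testis, 49.8 and 62.4 in day 3 testis and 66.6 and 70.9 in day 7 testis. In the fractions it had 1089 and 1142 CPM (LZ-labelled) and 1190 and 919.6 CPM (pachytene). Its log2 change from day 7 was 4.02 ± 0.28 (edgeR adjusted p = 1.38e-06) in the LZ-labelled fraction and 3.94 ± 0.28 (edgeR adjusted p = 1.96e-06) at pachytene. Kif3a had 63.1 and 64.9 CPM in day 1 testis, 72.4 and 68.0 in day 3 testis and 73.4 and 67.8 in day 7 testis. At pachytene it had 148 and 208 CPM, after 140.1 and 219 CPM in the LZ-labelled libraries. It rose by 1.35 ± 0.28 (edgeR adjusted p = 0.00135) and 1.33 ± 0.28 (edgeR adjusted p = 0.00159). Kif3c had 31.8 and 31.1 CPM in day 1 testis, 25.9 and 31.7 in day 3 testis and 23.7 and 29.2 in day 7 testis. Its values were 4.86 and 1.80 CPM in the LZ-labelled and 4.88 and 3.03 CPM in the pachytene libraries. It fell in both, with log2 changes of -3.27 ± 0.46 (edgeR adjusted p = 0.000108) and -2.76 ± 0.42 (edgeR adjusted p = 0.000196), and its LZ-labelled value ran from -3.88 without n1 of that fraction to -2.46 without n2.

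The balance of the kinesin-2 partners can be read within each library. Reads of Kif3b over reads of Kif3a were 0.969 and 0.936 in day 1 testis, 0.688 and 0.916 in day 3 testis, 0.907 and 1.05 in day 7 testis, 7.77 and 5.22 in the LZ-labelled fraction and 8.06 and 4.43 at pachytene. Reads of Kif3c over Kif3a were 0.491 ± 0.0178 (SD, n = 2) at day 1, 0.377 ± 0.0765 at day 7, 0.0215 ± 0.0187 in the LZ-labelled fraction and 0.0238 ± 0.0131 at pachytene. Whole testis thus held a higher Kif3c share and the fractions a higher Kif3b share, in every library. Kifap3, named here after its values were seen, rose by 4.02 ± 0.28 into the LZ-labelled fraction (edgeR adjusted p = 1.41e-06), from 36.6 ± 0.841 to 593 ± 179 CPM, and fell by 1.27 ± 0.25 to pachytene (edgeR adjusted p = 0.00811).

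Kif5b, the widely expressed heavy chain of conventional kinesin, fell in both fractions. It had 189.5 and 187 CPM in day 1 testis, 139 and 202 in day 3 testis and 262 and 269 in day 7 testis. Levels of Kif5b in the fractions were 19.0 and 9.92 CPM (LZ-labelled) and 29.3 and 22.7 CPM (pachytene). Each fraction library lay far below each testis library, with a log2 change from day 7 of -4.28 ± 0.37 (edgeR adjusted p = 4.51e-06) and -3.36 ± 0.34 (edgeR adjusted p = 1.6e-05). The step from the LZ-labelled fraction to pachytene, 0.92 ± 0.34 (edgeR adjusted p = 0.0838), did not pass. Kif5c had 19.4 and 16.2 CPM in day 1 testis, 11.0 and 13.8 in day 3 testis and 29.6 and 30.8 in day 7 testis. The LZ-labelled libraries held 29.7 and 42.3 CPM and the pachytene libraries 15.5 and 12.5 CPM. It was not called into the LZ-labelled fraction (0.27 ± 0.28, edgeR adjusted p = 0.393), fell to pachytene (-1.38 ± 0.29, edgeR adjusted p = 0.0103, and -1.08 with adjusted p = 0.0553 without LZ-labelled n2) and was lower there than at day 7 (-1.11 ± 0.29, edgeR adjusted p = 0.00544). Kif5a had 8.14 and 10.9 CPM in day 1 testis, 5.23 and 4.72 in day 3 testis and 17.7 and 14.4 in day 7 testis. Kif5a stood at 13.6 and 6.91 CPM in the LZ-labelled fraction and 14.7 and 7.30 CPM at pachytene. Neither fraction passed against day 7, with -0.73 ± 0.44 (edgeR adjusted p = 0.148) and -0.57 ± 0.42 (edgeR adjusted p = 0.241). Reads of Kif5b over reads of Kif5c were 8.72 to 14.6 in the 6 testis libraries, 0.639 and 0.235 in the LZ-labelled fraction and 1.90 and 1.81 at pachytene.

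The kinesin-3 motors, which carry vesicles and endosomes, divided gene by gene. Kif1c had 107 and 102 CPM in day 1 testis, 121 and 104 in day 3 testis and 109.7 and 109 in day 7 testis. In the fractions it had 11.2 and 6.81 CPM (LZ-labelled) and 9.56 and 5.37 CPM (pachytene). It fell in both, with log2 changes from day 7 of -3.68 ± 0.35 (edgeR adjusted p = 9.15e-06) and -3.89 ± 0.35 (edgeR adjusted p = 7.08e-06). Kif1a had 26.3 and 29.0 CPM in the LZ-labelled fraction and 7.93 and 3.58 at pachytene, after 66.3 and 71.9 at day 7. It fell at each step, with log2 changes of -1.32 ± 0.38 (edgeR adjusted p = 0.00929) and then -2.30 ± 0.42 (edgeR adjusted p = 0.00541), the latter -2.94 without pachytene n1. Against day 7 the pachytene change was -3.62 ± 0.42 (edgeR adjusted p = 3.86e-05), and -4.27 without n1. Kif1b, whose isoforms carry mitochondria and vesicles, had 154 and 146 CPM at day 7, 131 and 182 in the LZ-labelled fraction and 117 and 119.9 at pachytene. It passed neither against day 7 (0.06 ± 0.25, edgeR adjusted p = 0.824, and -0.34 ± 0.25, edgeR adjusted p = 0.237). Kif13a had 59.0 and 50.04 CPM in day 1 testis, 40.9 and 47.7 in day 3 testis and 37.0 and 41.2 in day 7 testis. At pachytene it had 3.46 and 6.61 CPM, after 2.43 and 11.9 CPM in the LZ-labelled libraries. The LZ-labelled replicates differed by several fold, and its change of -2.24 ± 0.50 (edgeR adjusted p = 0.00225) was -4.02 without LZ-labelled n2, while at pachytene it was -2.92 ± 0.52 (edgeR adjusted p = 0.000576), and -3.51 without n2 there. Kif13b ranged from 13.7 to 47.0 CPM over the 10 libraries and passed no comparison. Kif16b, a motor of early endosomes, went the other way. It had 32.8 and 32.9 CPM in day 1 testis, 24.1 and 31.6 in day 3 testis and 36.0 and 37.5 in day 7 testis. Its values were 129 and 159 CPM in the LZ-labelled and 112 and 105 CPM in the pachytene libraries. The fractions lay above all testis libraries, with log2 changes from day 7 of 1.97 ± 0.24 (edgeR adjusted p = 4.74e-05) and 1.56 ± 0.24 (edgeR adjusted p = 0.000231).

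Kif21a and Kif21b, which restrain microtubule growth and carry cargo in neurons, moved apart. Kif21a had 39.9 and 40.8 CPM in day 1 testis, 27.1 and 52.5 in day 3 testis and 62.8 and 66.4 in day 7 testis. Levels of Kif21a in the fractions were 11.7 and 8.02 CPM (LZ-labelled) and 13.8 and 7.43 CPM (pachytene). It fell in both fractions, with -2.77 ± 0.42 (edgeR adjusted p = 0.00018) and -2.62 ± 0.40 (edgeR adjusted p = 0.000233). Kif21b had 153 and 147 CPM in day 1 testis, 67.9 and 96.9 in day 3 testis and 74.9 and 80.3 in day 7 testis. The LZ-labelled libraries held 119 and 199.6 CPM and the pachytene libraries 63.5 and 55.8 CPM. It was higher in the LZ-labelled fraction (1.04 ± 0.29, edgeR adjusted p = 0.00841) and lower at pachytene than there (-1.42 ± 0.30, edgeR adjusted p = 0.01), which left it not called against day 7 (-0.38 ± 0.29, edgeR adjusted p = 0.259). The first call was lost without day 7 n1 (0.86, adjusted p = 0.0676) or LZ-labelled n2 (0.59, adjusted p = 0.0753), and the second without pachytene n2 (-1.34, adjusted p = 0.0539). Kifc3, a minus-end motor of epithelial cells and the Golgi, had 23.2 and 25.6 CPM in day 1 testis, 20.1 and 16.8 in day 3 testis and 15.8 and 15.5 in day 7 testis. Kifc3 stood at 59.3 and 141 CPM in the LZ-labelled fraction and 47.6 and 88.0 CPM at pachytene. In both fractions n2 was well above n1, and the change from day 7 was 2.70 ± 0.43 (edgeR adjusted p = 0.000264), 1.90 without LZ-labelled n2, and 2.12 ± 0.42 (edgeR adjusted p = 0.00122) at pachytene. Kifc2 stayed within 7.94 to 14.2 CPM in all 10 libraries and passed no comparison.

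Of the remaining kinesins, Kif2a and Kif4-ps rose in both fractions and Kif26a fell. Kif2a, a microtubule depolymerase of spindle poles and neurites, had 62.1 and 64.3 CPM in day 1 testis, 74.6 and 57.5 in day 3 testis and 64.1 and 60.1 in day 7 testis. In the fractions it had 388 and 643 CPM (LZ-labelled) and 370.3 and 461 CPM (pachytene). Its log2 change from day 7 was 3.06 ± 0.31 (edgeR adjusted p = 1.26e-05) and 2.74 ± 0.30 (edgeR adjusted p = 2.69e-05). The kinesin-13 depolymerases Kif2a, Kif2b and Kif2c were therefore all higher in both fractions than at day 7, yet not to the same extent. Reads of Kif2b over Kif2a were 0.0267 ± 0.0097 (SD, n = 2) at day 1, 0.00172 ± 0.00243 at day 7, 3.72 ± 1.11 in the LZ-labelled fraction and 1.56 ± 0.525 at pachytene. Reads of Kif2c over Kif2a were 0.779 ± 0.0894 at day 7, 1.01 ± 0.0693 in the LZ-labelled fraction and 0.300 ± 0.0204 at pachytene. Kif26a, an atypical kinesin that tempers growth factor signaling in enteric neurons, had 80.5 and 78.8 CPM in day 1 testis, 50.2 and 78.1 in day 3 testis and 68.7 and 64.6 in day 7 testis. At pachytene it had 3.66 and 1.51 CPM, after 2.92 and 1.002 CPM in the LZ-labelled libraries. Its log2 change from day 7 was -5.47 ± 0.54 (edgeR adjusted p = 1.1e-05) in the LZ-labelled fraction, -4.53 without n2 of it, and -4.74 ± 0.49 (edgeR adjusted p = 1.6e-05) at pachytene, -5.46 without n1 there.

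Kif26b had 11.2 and 5.81 CPM in the LZ-labelled fraction and 1.22 and 1.38 at pachytene. After its fall in whole testis it was higher in the LZ-labelled fraction than at day 7 (2.30 ± 0.46, edgeR adjusted p = 0.00107) and lower at pachytene than there (-2.60 ± 0.51, edgeR adjusted p = 0.00764). Pachytene and day 7 overlapped (-0.30 ± 0.52, edgeR adjusted p = 0.608). Kif7, which organizes the ciliary tip for Hedgehog signaling, had 26.5 and 30.7 CPM in day 1 testis, 32.0 and 25.6 in day 3 testis and 28.1 and 34.5 in day 7 testis. Its values were 39.4 and 83.9 CPM in the LZ-labelled and 31.9 and 56.9 CPM in the pachytene libraries. Its call in the LZ-labelled fraction (1.00 ± 0.39, edgeR adjusted p = 0.0371) rested on n2 of that fraction (0.31 with adjusted p = 0.481 without it). It was lost too without any 1 of the testis libraries, with log2 changes of 0.72 to 1.00 and adjusted p of 0.0857 to 0.252, and with upper-quartile scaling. It was not called at pachytene (0.51 ± 0.39, edgeR adjusted p = 0.252). Kif12 was at or below 3 counts in each stage from day 7 on, and no fold is given.

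Kif4-ps, a transcribed pseudogene of Kif4 on chromosome 12, rose while Kif4 on the X fell. Kif4-ps had 2 and 9 counts in day 1 testis, 2 and 5 in day 3 testis, 2 and 4 in day 7 testis, 108 and 260 in the LZ-labelled fraction and 621 and 626 at pachytene. In CPM this was 0.246 and 0.776 CPM in day 1 testis, 0.0666 and 0.407 in day 3 testis and 0.110 and 0.246 in day 7 testis. Levels of Kif4-ps in the fractions were 52.5 and 26.1 CPM (LZ-labelled) and 126 and 86.2 CPM (pachytene). The log2 change from day 7 was 7.69 ± 0.73 (edgeR adjusted p = 8.13e-06) in the LZ-labelled fraction and 9.16 ± 0.74 (edgeR adjusted p = 3.79e-06) at pachytene, 9.78 without day 7 n2. From the LZ-labelled fraction to pachytene it was 1.47 ± 0.49 (edgeR adjusted p = 0.0567). Reads of Kif4-ps over reads of Kif4 were 0.0131 ± 0.0112 (SD, n = 2) at day 1 and 0.00409 ± 0.00254 at day 7, then 5.40 and 3.33 in the LZ-labelled libraries and 20.7 and 20.9 in the pachytene libraries. Reads of a pseudogene and its parent gene can be counted on either, so both values are uncertain. Each of the 4 fraction libraries had a ratio above 1 and each testis library one below it.

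**Figure D5:**
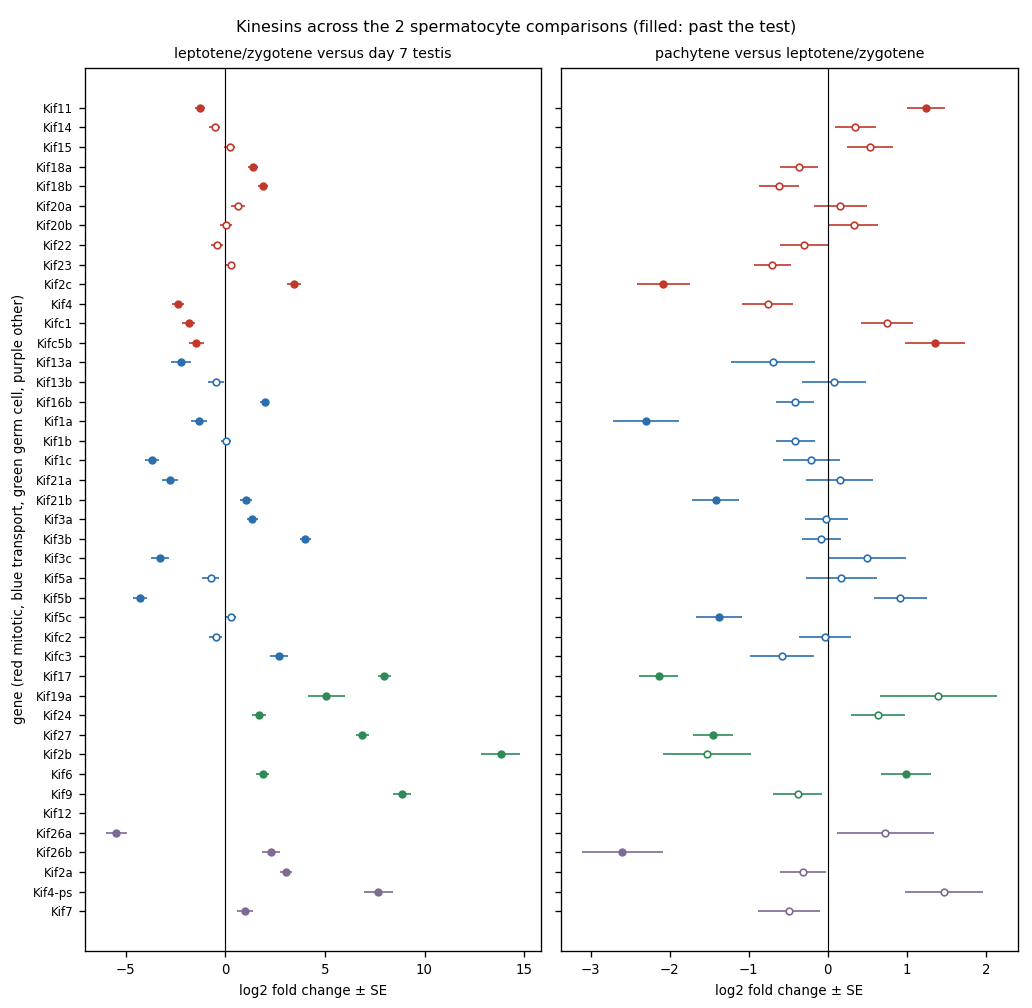
Log2 fold change ± SE (x axis) of each kinesin (y axis, colored by group) from day 7 testis to the LZ-labelled fraction (left) and from there to pachytene (right), on different x scales; filled points passed edgeR's test, open points did not, and Kif12 has no point because it was at or below 3 counts. On the left the 7 germ cell kinesins lie right of 0 and the other groups on both sides; on the right 3 filled points lie right of 0 and 7 left of it.

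The step from the LZ-labelled fraction to pachytene held fewer called kinesins than the step before it, 23.8% against 71.4%. Of all genes 22.2% and 78.5% were called in these steps, so the drop was not particular to the family. The 7 falls to pachytene were Kif26b, Kif1a, Kif17, Kif2c, Kif27, Kif21b and Kif5c, with log2 changes of -2.60 to -1.38. The 3 rises were Kif11, Kifc5b and Kif6, with 0.99 to 1.36. By group 2 mitotic kinesins rose and 1 fell, 3 transport kinesins fell, 1 germ cell kinesin rose and 2 fell, and 1 of the others fell. Over all genes 9.03% rose and 13.2% fell. In a fit of only these 2 stages 4 kinesins were called, and Kif11, Kif1a, Kif21b, Kif26b, Kif5c, Kif6 and Kifc5b were not among them. Replicates differed more in the fractions than in whole testis, with an SD over all genes of the log2 difference between n1 and n2 of 1.17 in the LZ-labelled fraction and 0.968 at pachytene against 0.304 to 0.633 in the testis stages. On simulated counts 65% of 4-fold changes were recovered in this step and 80% in the step before it. Those counts were drawn with the same spread in all stages, so the wider spread of the fractions was not simulated.

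Partner genes of the motors were counted from lists of known function. Against day 7, 36.5% of all genes were higher and 42.0% lower in the LZ-labelled fraction, and 35.1% and 40.1% at pachytene. Of 14 intraflagellar transport genes, whose products form the trains that Kif3a and Kif3b pull, 13 rose into the LZ-labelled fraction and 0 fell, with a median log2 change of 2.80. Ift140 rose by 4.31 ± 0.36 (from 71.2 ± 0.264 to 1415 ± 486 CPM) and Ift172 by 4.13 ± 0.57, with edgeR adjusted p of 3.51e-06 and 9.91e-05. At pachytene 13 of 14 were again higher than at day 7, with a median of 2.71, and Ift80 alone of the 14 passed between the fractions, with 1.92 ± 0.22 (edgeR adjusted p = 0.000929). Of 13 genes of cytoplasmic dynein and dynactin, the motor that runs toward minus ends, 7 rose and 2 fell into the LZ-labelled fraction, with a median of 1.11, and 9 were higher and 2 lower at pachytene than at day 7, with a median of 1.10. Into the LZ-labelled fraction Dync2h1, the heavy chain of the ciliary dynein, rose by 2.40 ± 0.45 (edgeR adjusted p = 0.000791). Dync1li1, a light intermediate chain of the cytoplasmic form, fell by 1.99 ± 0.26 in the same step (edgeR adjusted p = 7.51e-05).

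Of 21 light chains and adaptors, 11 rose and 8 fell into the LZ-labelled fraction, with a median of 1.05, while at pachytene 9 were higher and 6 lower than at day 7, with a median of -0.06. Into the LZ-labelled fraction Grip1, an adaptor of Kif5 in neurons, rose by 5.58 ± 0.47 (edgeR adjusted p = 4.02e-06). Ktn1, a membrane receptor of kinesin, fell by 5.56 ± 0.56 in the same step (edgeR adjusted p = 1.2e-05). From the LZ-labelled fraction to pachytene 4 rose and 6 fell (9.03% and 13.2% of all genes), with Klc3, a light chain found in the sperm tail, falling by 3.16 ± 0.62 (edgeR adjusted p = 0.00743). Of 24 spindle partners 8 rose and 8 fell into the LZ-labelled fraction (median 0.12), and at pachytene 11 were higher and 4 lower than at day 7 (median 0.58). Into the LZ-labelled fraction Aurka, the spindle pole kinase, rose by 3.46 ± 0.30 (edgeR adjusted p = 4.66e-06). Mad2l1, a checkpoint protein, fell by 3.35 ± 0.45 in the same step (edgeR adjusted p = 8.79e-05). From the LZ-labelled fraction to pachytene 10 spindle partners rose and 1 fell (median 0.29), and Mad2l1 rose by 1.89 ± 0.45 and Cdk1, the mitotic kinase, by 1.52 ± 0.30, with edgeR adjusted p of 0.0174 and 0.00821. Between the testis stages no gene of these 4 lists was called by edgeR, and at an unadjusted p under 0.05 there were 9 of 72 from day 1 to day 3, all of them spindle partners, 3 from day 3 to day 7 and 5 from day 1 to day 7. Of all genes 6.5%, 14.2% and 18.4% had such a p in these steps.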

How the data were processed

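The table of gene counts was used as the authors deposited it, as raw whole-number counts per gene symbol and library. HTSeq 0.6.1, edgeR 3.6.8, Bowtie 0.12.7, BWA 0.7.8 and the mm9 genome are named in the submitters' processing notes, with roles, strand setting and annotation not given in the sources used here, so overlapping genes and their antisense partners cannot be told apart. The 5 summary rows of HTSeq, with 44.7% to 64.5% of reads per library, were left out. Their share was 63.3% in LZ-labelled n1 and 64.5% in pachytene n1, and 44.7% to 51.8% in the other libraries. The small RNA table was not used here.

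Genes were filtered with filterByExpr (minimum count 10), scaled by TMM and fitted over 10 libraries with edgeR 4.0.16 (R 4.3.3), with 5 residual degrees of freedom, two-sided quasi-likelihood F tests and Benjamini-Hochberg adjustment at 0.05 over 16872 genes. SE is the absolute log2 change over the square root of F. Members, groups and lists were chosen with earlier results of these data known. Per-library values are given for mitotic and germ cell kinesins and for other members called with a stage mean of at least 5 CPM, and at most 4 genes per list and step are named by size of change; Dmc1, Prm2, Kifap3 and the uncalled kinesins shown beside them were added after their values were seen. Exact intervals and the 3-count floor cover counting error only. The p-values rest on the spread between the 2 replicates of a stage, pooled over all 5 stages and not taken from the compared stages alone. Replicate pairs differed by more than sampling noise. On simulated counts 65% to 83% of 4-fold changes and 4% to 11% of 2-fold changes were recovered in the 6 comparisons, over 16439 to 16744 genes. The simulation gave each gene the same spread in all stages. Alternatives were DESeq2 1.42.0, other scalings, no filter, fewer stages, a replicate block and leaving out each library. Promoters and chromosomes came from RefSeq tables of GRCm38.p6.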

Additional observations from a re-analysis of the deposited data

How the results depend on the processing

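Counts of called kinesins in the testis steps moved with the fit and those into the fractions less so. From day 1 to day 3 the count was 0 in all alternatives. From day 3 to day 7 (1 kinesin) it was 2 with upper-quartile factors, 5 with DESeq2, 2 with no filter, 3 in a fit of only these 2 stages, 6 in a fit of only the testis stages, and 0 to 3 with a library left out. From day 1 to day 7 (2 kinesins) it was 6 with DESeq2, 25 with only these 2 stages and 12 with only the testis stages. Those fits of fewer stages called 6800 of 14927 and 2962 of 15233 genes tested. With a library left out the kinesin count also moved. From day 7 to the LZ-labelled fraction (30) it was 30 to 33, and 28 to 32 with a library left out; from day 7 to pachytene (29) it was 27 to 31, and 25 to 29. From the LZ-labelled fraction to pachytene (10) it was 4 in a fit of only these 2 stages, 9 to 12 with other scalings, DESeq2, no filter or a block over all stages, and 7 to 14 with a library left out, where a lone library was assumed to vary like the other stages.

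Over all genes the counts were 252 from day 3 to day 7, and 1026 with DESeq2, 437 with no filter, 1019 with only these stages, 2126 with only the testis stages and 0 to 632 with a library left out (0 without either day 7 library). From day 1 to day 7 they were 567, and 1615, 6800 and 2962 with DESeq2, only these stages and only the testis stages, and 0 without either library of day 1 or day 7. From the LZ-labelled fraction to pachytene 3744 became 930 with only these stages and 2076 to 5071 with a library left out. From day 1 to day 3 DESeq2 called 79, the testis stages alone 7, and the fit without day 3 n2 35.

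Replicate numbers do not pair animals in the labels. The deviations of same-numbered libraries correlated at -0.11 to 0.02 between stages and at 0.64 between the LZ-labelled and pachytene fractions. With the replicate number as a block over all stages the counts were 0, 1, 2, 30, 9 and 27 in the order day 1 to 3, 3 to 7, 1 to 7, day 7 to LZ-labelled, LZ-labelled to pachytene and day 7 to pachytene. A block in the spermatocyte stages alone, added after seeing the data, gave 33 from day 7 to the LZ-labelled fraction and 18 (6 higher, 12 lower) from there to pachytene, where Kif2b, Kif19a, Kif4, Kif4-ps, Kif5b, Kif18b, Kif23 and Kifc3 gained a call. Of the alternatives for single kinesins within an adjusted p of 0.1, 1236 kept direction and call, 72 lost the call, 40 gained it and 0 reversed. Low depth limits Kif2b, Kif4-ps and Kif12 in whole testis and all members in LZ-labelled n1.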
